A study of Mus musculus with 4 samples.

Results

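Skeletal muscle fiber genes were examined in brown adipose tissue (BAT), a heat-producing fat, of 4 transgenic (Tg) mice. The genes were those encoding the contractile apparatus and the calcium and energy systems of muscle fibers. They numbered 44, of 20142 named genes with a probe measured on all arrays, and were the non-control probes whose accession mapped to a listed gene. Of them, 14 are typical of fast fibers, 9 of slow fibers and 21 of fibers of both types. The list was chosen by the levels of these genes on the same 4 arrays, seen in an earlier analysis, so the levels and differences below are descriptions and no test over the list was made.

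The Tg mice (maP2-Fv2E-PERK, C57/BL6N strain) were males of 8 weeks. Their transgene encodes Fv2E-PERK, an eIF2α kinase that is switched on by the ligand AP (AP20187), and stands under the aP2 (Fabp4) promoter, which drives expression in adipocytes and also in macrophages. The groups compared held 2 mice each: vehicle-treated Tg mice, which received the ethanol, PEG-400 and Tween-20 solution alone, and AP-treated Tg mice, which received AP at 1 ng/g per the labels. The dose is uncertain, since a legend of the study states a higher one. Both groups carried the transgene and both were injected intraperitoneally and killed at 12 h, so no wild-type mouse enters these arrays. RNA of each mouse was hybridized with a single dye to its own Agilent mouse array of 62976 spots. The labels do not state whether the mice shared a litter or a day, so each p value measures only the spread between these samples.

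Each level is the log2 background-subtracted signal minus log2 of the 75th percentile on that array, so that 0 is a signal at that percentile and 1 unit is a doubling. The 75th percentile lay at an intensity of 119 in vehicle replicate 1, 159 in vehicle replicate 2, 128 in AP replicate 1 and 118 in AP replicate 2. On the same arrays, 46.8%, 49.0%, 46.4% and 46.4% of spots were well above background, and no spot was saturated. Intensity depends on the probe, so levels of a gene are compared across arrays and not with those of another gene.

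BAT was recognizable on all 4 arrays. Ucp1, the uncoupling protein that turns mitochondrial respiration into heat, stood at 10.41 and 9.66 in the vehicle-treated mice and at 9.66 and 10.25 in the AP-treated mice. All 12 brown adipocyte genes examined were well above background in every mouse. They include genes of adipocytes in general, such as Adipoq and Pparg. Their levels differed between the mice, most for Elovl3, as given further below.

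As background, a skeletal muscle fiber contracts when myosin heads pull on actin filaments, and troponin and tropomyosin on the actin filament gate this in response to calcium. The calcium is released from the sarcoplasmic reticulum through the ryanodine receptor and pumped back by SERCA. Fast and slow fibers build the same machine from different paralogs: each type has its own myosin heavy and light chains, troponins and calcium buffers. Interscapular BAT lies directly against muscle of the back, and brown adipocytes share a developmental lineage with muscle. Genes of the fiber program carry binding sites for myogenic regulators close to their start sites, namely E-boxes (bound by MyoD and its relatives), MEF2 sites, CArG boxes (bound by SRF) and MCAT elements (bound by TEAD factors).

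Promoters of 4 of these genes are shown as examples, picked because they hold the different motifs. Windows of some other members, such as Tnnc2 and Ryr1, held none of these motifs. Each is the window of 250 bases before the annotated start (RefSeq, GRCm38.p6, in the direction of the gene), with the motifs found on either strand in capitals. Myh4 (chr11:67237562-67237811, plus strand) is a fast gene and holds an MCAT element, a MEF2 site, a CArG box and an E-box, in this order. Acta1 (chr8:123894776-123895025, minus strand) is expressed in both fiber types and holds an E-box, a CArG box and an MCAT element. Myl3 (chr9:110763428-110763677, plus strand) and Myoz2 (chr3:123034988-123035237, minus strand) are slow genes. Myl3 holds 2 MCAT elements, the first read on the opposite strand, and a CArG box, and Myoz2 holds a MEF2 site and an E-box close to the start.
Myh4: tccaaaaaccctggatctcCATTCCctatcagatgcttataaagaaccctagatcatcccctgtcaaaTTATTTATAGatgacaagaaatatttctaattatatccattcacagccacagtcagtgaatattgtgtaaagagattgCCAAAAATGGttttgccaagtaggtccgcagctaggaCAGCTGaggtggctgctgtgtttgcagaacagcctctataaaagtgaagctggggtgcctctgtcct
Acta1: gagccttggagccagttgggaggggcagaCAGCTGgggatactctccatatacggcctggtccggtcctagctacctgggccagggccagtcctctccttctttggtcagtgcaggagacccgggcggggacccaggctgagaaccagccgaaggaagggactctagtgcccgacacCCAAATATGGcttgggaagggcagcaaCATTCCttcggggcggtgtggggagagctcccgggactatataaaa
Myl3: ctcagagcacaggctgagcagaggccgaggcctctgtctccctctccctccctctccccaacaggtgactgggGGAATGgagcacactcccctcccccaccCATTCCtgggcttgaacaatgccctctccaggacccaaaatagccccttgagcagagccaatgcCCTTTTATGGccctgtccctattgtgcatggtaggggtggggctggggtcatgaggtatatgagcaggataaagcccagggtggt
Myoz2: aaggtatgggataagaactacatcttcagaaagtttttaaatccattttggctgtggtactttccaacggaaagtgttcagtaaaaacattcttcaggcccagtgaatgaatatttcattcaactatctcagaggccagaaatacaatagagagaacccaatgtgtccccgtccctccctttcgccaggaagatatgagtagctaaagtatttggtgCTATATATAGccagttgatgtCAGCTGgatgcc

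Of the 44 genes, 34 had a promoter in the RefSeq table, with 41 windows, and the other 10 were not searched. The E-box CAGCTG, which reads the same on both strands, was found in 48.8% of the 41 windows and in 13.0% of all 32851 promoter windows of the same length. The MCAT element CATTCC, searched on both strands like the other motifs, was found in 26.8% of the windows of the muscle fiber genes and in 12.6% of all. A MEF2 site was found in 19.5% against 2.92%, and a CArG box in 12.2% against 1.47%. By fiber type, E-boxes were in 5 of 11 windows of fast genes and in 5 of 12 of slow genes, and MEF2 sites in 3 of 11 and in 2 of 12. These matches describe the sequence only, and some windows of a gene with several starts overlap.

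All 44 genes had a probe that passed the filter on dim probes, which asked that both mice of a group, either vehicle or AP, be well above background. Of them, 33 were well above background on all 4 arrays, and the other 11 were well above background on 3 arrays and below it only in vehicle replicate 1. These 11 genes therefore passed through the AP group alone. They were 1 fast gene, 5 slow genes and 5 genes of both fiber types.

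The 4 mice stood in the same order for nearly every gene. In 43 of 44 genes the level was highest in vehicle replicate 2, followed by AP replicate 1, AP replicate 2 and vehicle replicate 1. The same order was found in 3.95% of all 24973 probes tested. The median level of the 44 genes was -0.80 in vehicle replicate 1, 3.72 in vehicle replicate 2, 2.93 in AP replicate 1 and 1.95 in AP replicate 2. Summed over the genes, the signal was 125, 1637, 997 and 589 times that of the 75th percentile on these arrays. Both extremes were thus vehicle-treated mice, and the AP-treated mice lay between them. In tissue of this kind, fewer muscle fibers and less RNA per fiber cannot be told apart.

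**Figure D1:**
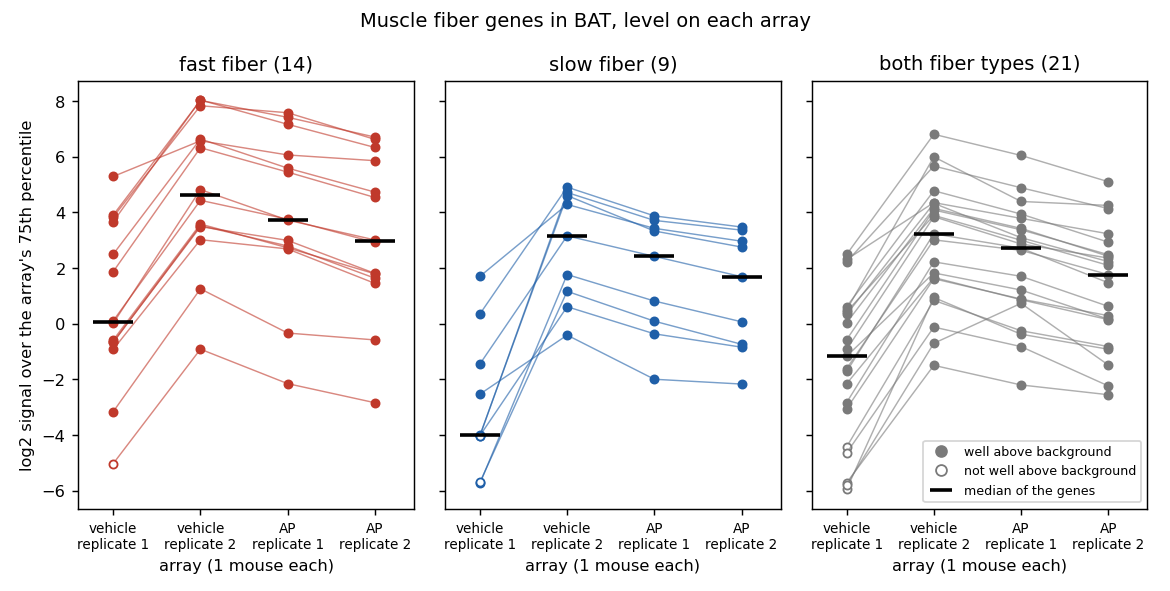
Level of each of the 44 muscle fiber genes on the 4 arrays (y axis, log2 signal over the array's 75th percentile; x axis, 1 mouse per array), in separate panels for fast, slow and both fiber types. Filled points are well above background, open points are not, and black bars are medians of the genes. Vehicle replicate 1 is lowest for every gene, and 11 open points all belong to this mouse.

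Expressed as a share of the signal in vehicle replicate 2, the genes had a median of 56.8% in AP replicate 1 (quartiles 48.8% and 63.2%) and 31.4% in AP replicate 2 (28.7% and 36.7%). For the 33 genes above background in vehicle replicate 1, the median share was 5.56% there (4.12% and 6.51%). The other 11 genes, among them Myh7 and Myl2, were below background in that mouse and are not in these quartiles.

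Myosin heavy chains are the motor proteins that set fiber type. Myh4, the heavy chain of the fastest (type IIb) fibers, was at 3.84 in vehicle replicate 1, 7.83 in vehicle replicate 2, 7.58 in AP replicate 1 and 6.63 in AP replicate 2. Myh1, the heavy chain of type IIx fibers, was at 0.11, 4.44, 3.76 and 2.92 on the arrays in this order, which is kept below. For Myh2, the heavy chain of type IIa fibers, the levels were 0.02, 4.82, 3.72 and 3.01. For each of these fast heavy chains the AP-treated mice lay between the vehicle-treated mice. Myh7, the heavy chain of slow fibers, reached 4.72 in vehicle replicate 2, 3.71 in AP replicate 1 and 3.36 in AP replicate 2, and was not well above background in vehicle replicate 1 (-4.03). Its signal in vehicle replicate 2 was at least 331-fold that in vehicle replicate 1, where a level below background was replaced by the lowest signal well above background on that array. The difference of Myh4 between the same mice was 16.0-fold. Probes for heavy chains can cross-hybridize because the genes are near-identical, and this was not checked. How far the probes of Myh4, Myh1 and Myh2 tell these genes apart is therefore uncertain. Myh8, the perinatal heavy chain, gave 4.30, 8.31, 8.05 and 7.10, almost parallel to Myh4, and is uncertain for the same reason. The other 2 genes of embryonic and regenerating fibers that passed the filter, Myl4 (2.08, 2.57, 1.71 and 2.42) and Actc1 (-2.60, -1.64, -3.18 and -1.91), were lowest in AP replicate 1.

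Myosin light chains stiffen and regulate the myosin neck. Mylpf, the fast regulatory light chain, was not above background in vehicle replicate 1 (-5.02) and was at -0.91 in vehicle replicate 2, -2.15 in AP replicate 1 and -2.84 in AP replicate 2. Its slow counterpart Myl2, which is also the ventricular light chain, was at -4.01 (not above background), 4.61, 3.33 and 2.76. Both thus had their lowest level in vehicle replicate 1 and their highest in the other vehicle-treated mouse. Myl1, the fast essential light chain, was at 5.29, 6.57, 6.07 and 5.86, and its slow counterpart Myl3 at 1.70, 4.29, 3.43 and 2.97. Among the 33 genes measured in every mouse, Myl1 had the smallest difference between the vehicle-treated mice (2.43-fold), and its second probe differed by 1.60 on the log2 scale.

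Troponins are the calcium switch of the thin filament. Troponin I, the inhibitory subunit, was at 3.67, 8.04, 7.17 and 6.34 for the fast gene Tnni2. The slow gene Tnni1 was at -5.74 (not above background), 1.77, 0.82 and 0.07. Vehicle replicate 1 was again the lowest and vehicle replicate 2 the highest for both. Troponin T, which anchors the complex to tropomyosin, was at 1.88, 6.33, 5.45 and 4.54 for the fast gene Tnnt3 and at 0.35, 4.91, 3.88 and 3.48 for the slow gene Tnnt1. Troponin C, which binds the calcium, was at 3.91, 8.03, 7.42 and 6.71 for the fast gene Tnnc2 and at -4.02 (not above background), 0.61, -0.36 and -0.84 for the slow gene Tnnc1. In all 6 troponin genes the AP-treated mice fell between the vehicle-treated mice.

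Thick filament and Z-disc genes followed the same course. Mybpc2, the fast myosin-binding protein C, was at -0.92, 3.02, 2.69 and 1.45, and the slow form Mybpc1 at -1.45, 3.16, 2.42 and 1.69. Myoz1, a Z-disc protein of fast fibers that binds calcineurin, was at -0.59, 3.58, 2.73 and 1.79, and its slow counterpart Myoz2 at -5.70 (not above background), 1.17, 0.09 and -0.74. Acta1, skeletal α-actin, was at 2.49, 6.81, 6.05 and 5.11, which made a 20.0-fold difference between the vehicle-treated mice and a 1.92-fold difference between the AP-treated mice. Among genes chosen after their values were seen, Tcap (telethonin, a cap on titin at the Z-disc) had the largest measured difference between the vehicle-treated mice, at 0.50 against 6.0. Tpm2, a tropomyosin, had one of the smallest, at 2.31 against 4.35.

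Calcium handling and energy genes behaved alike. Atp2a1, the fast SERCA pump, was at -0.66, 3.49, 3.0 and 1.81, and Pvalb, the calcium buffer parvalbumin of fast fibers, at 2.50, 6.64, 5.59 and 4.73. Sln, sarcolipin, a small inhibitor of SERCA, was not above background in vehicle replicate 1 (-5.94) and was at 0.94, -0.38 and -0.92 in the others. Casq1, the fast calsequestrin that stores calcium in the sarcoplasmic reticulum, was at -3.16, 1.26, -0.33 and -0.58. Its counterpart Casq2, of slow and cardiac muscle, was at -2.53, -0.41, -1.99 and -2.17, so that the AP-treated mice lay closer to vehicle replicate 1 than to vehicle replicate 2. Ckm, muscle creatine kinase, was at 0.03, 4.14, 3.43 and 2.43, and Mb, the oxygen carrier myoglobin, at 0.61, 4.78, 3.94 and 2.93. 

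The other 17 genes of the list also had vehicle replicate 1 as the lowest and vehicle replicate 2 as the highest mouse. Structural members among them were Actn2 and Actn3 (α-actinins of the Z-disc), Tpm2, Neb (nebulin), Ttn (titin), Myot, Ldb3, Tcap and Xirp2. Members of excitation were Ryr1, the calcium release channel, and the calcium channel subunits Cacna1s and Cacng1. Energy metabolism was represented by Ckmt2, Pygm, Eno3, Ampd1 and Pgam2, which encode mitochondrial creatine kinase, glycogen phosphorylase, β-enolase, AMP deaminase and phosphoglycerate mutase. The 14 of them measured in both vehicle-treated mice differed by 2.04 to 5.50 on the log2 scale. For Cacng1, Ampd1 and Xirp2, which were below background in vehicle replicate 1, the difference was at least 2.16, 4.49 and 3.53.

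Trim63 (MuRF1) was the exception to the order. It encodes a ubiquitin ligase that marks proteins of the sarcomere for degradation in atrophy. Its level was -5.80 (not above background) in vehicle replicate 1, -0.70 in vehicle replicate 2, 0.73 in AP replicate 1 and -1.48 in AP replicate 2, so that AP replicate 1 was the highest. The second probe of Trim63 gave -5.83, -1.91, -0.80 and -3.20, with the same order. Fbxo32 (atrogin-1), the other ubiquitin ligase known for atrophy and not among the 44 genes, was at -1.93 and -1.43 in the vehicle-treated mice and at -0.06 and -0.69 in the AP-treated mice, without overlap, as in 38.3% of all probes. Its log2 fold change was 1.30 (SE 0.33) with an adjusted p of 0.80 by limma.

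Differences between mice of the same group were compared next. Vehicle replicate 2 exceeded vehicle replicate 1 by at least 2-fold for all 44 genes, as did 4.93% of all probes tested. The median difference was 4.35 on the log2 scale, against -0.10 over 12788 named genes, and 4.23 with the 11 genes below background in vehicle replicate 1 at their lower bound. For the 33 genes measured in both mice it was 4.17 (range 1.28 to 5.50). Of the 100 named genes with the largest difference, 39 were among the 44, but 52 of the 100, 11 of the 44 among them, were below background in vehicle replicate 1. With levels below background raised to the lowest signal well above background, it was 36 of 100. AP replicate 1 exceeded AP replicate 2 by at least 2-fold for 10 of 44 genes, as did 3.06% of all probes, with a median difference of 0.79 against 0.01 over the named genes. All 44 genes were higher in AP replicate 1 than in AP replicate 2.

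**Figure D2:**
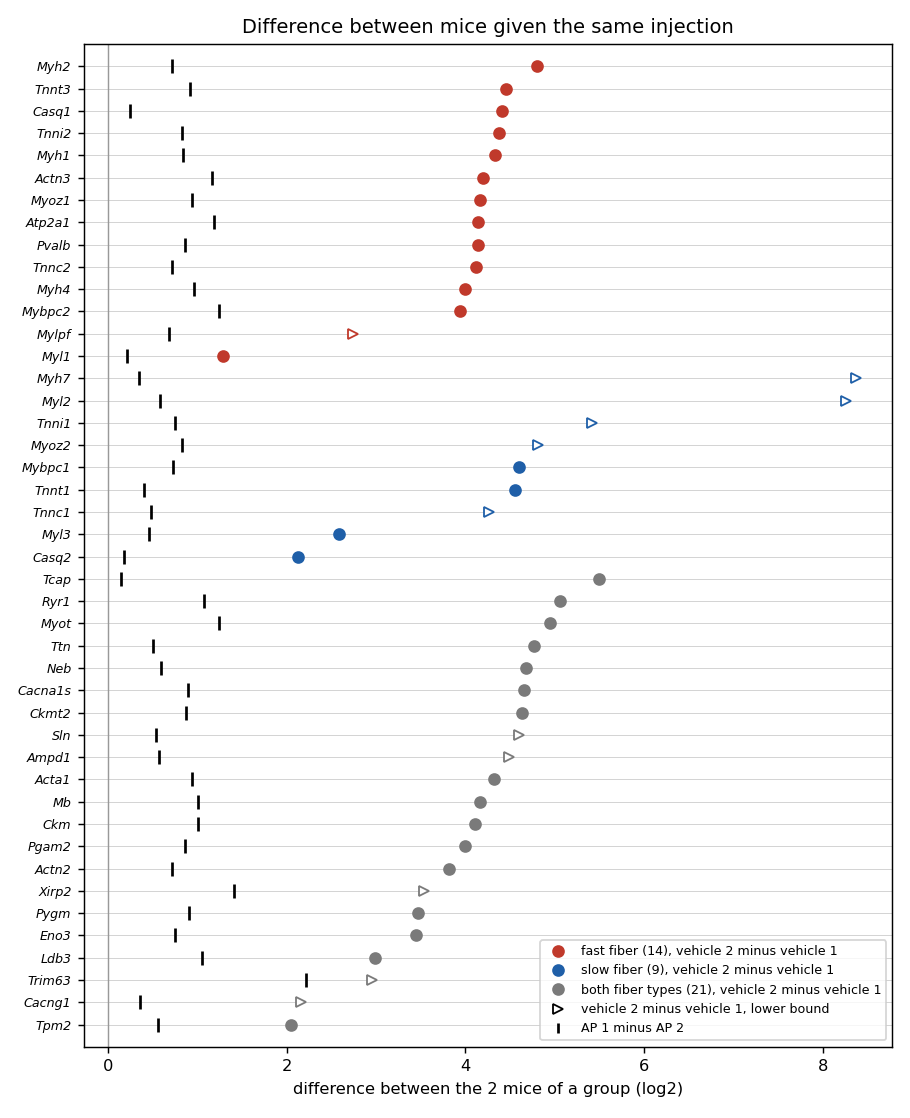
Difference between the 2 mice of each group for the 44 genes (x axis, log2; y axis, genes by fiber type). Circles are vehicle replicate 2 minus vehicle replicate 1, open triangles are lower bounds of that difference, and black ticks are AP replicate 1 minus AP replicate 2. Every circle and triangle lies to the right of its tick, and the circles range from 1.28 (Myl1) to 5.50 (Tcap).

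Fast and slow fiber genes were then set side by side, as a measure of muscle carried over with the tissue. Muscle carried over and muscle genes expressed by cells of the BAT cannot be told apart on these arrays. Between vehicle replicates 2 and 1, fast genes differed by a median of 4.16 and slow genes by 4.63, or 4.60 with genes at their lower bound. This order depended on the processing. With normexp (offset 50, on the median spot signal), whose offset narrows differences between dim signals, the slow median was lower by 0.80. Among genes measured in both mice, the median was 4.17 for 13 fast genes and 3.57 for 4 slow genes. This leaves out the genes that were dim in vehicle replicate 1. Of the slow genes, 5 of 9 were below background in vehicle replicate 1, against 1 of 14 fast genes. Vehicle replicate 2 exceeded AP replicate 1 by a median of 0.79 for fast genes and 1.00 for slow genes, and AP replicate 2 by 1.75 and 1.46. AP replicate 1 exceeded AP replicate 2 by 0.85 for fast genes and 0.48 for slow genes. The medians of fast and slow genes thus had the same sign in each of these comparisons.

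Within the 9 pairs of fast and slow paralogs, the order of the vehicle-treated mice could be compared in 8, since both genes of the pair Mylpf and Myl2 gave only bounds. The slow gene differed more in 7 of these 8, and the fast gene in the pair Casq1 and Casq2 (4.41 against 2.12). In the pair Myh4 and Myh7 the difference was 4.00 for the fast gene and at least 8.37 for the slow gene. With normexp background correction, the slow gene differed more in 4 of 9 pairs. Between vehicle replicate 2 and AP replicate 1, the slow gene differed more in 8 of 9 pairs (median 0.22 more), and in 6 of 9 with normexp. Between vehicle replicate 2 and AP replicate 2 it differed more in 4 of 9 pairs, in 3 of 9 with normexp and in 5 of 9 with quantile scaling. Between the AP-treated mice, the fast gene differed more in 8 of 9 pairs, and Myl3 was the slow gene that differed more than its partner.

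**Figure D3:**
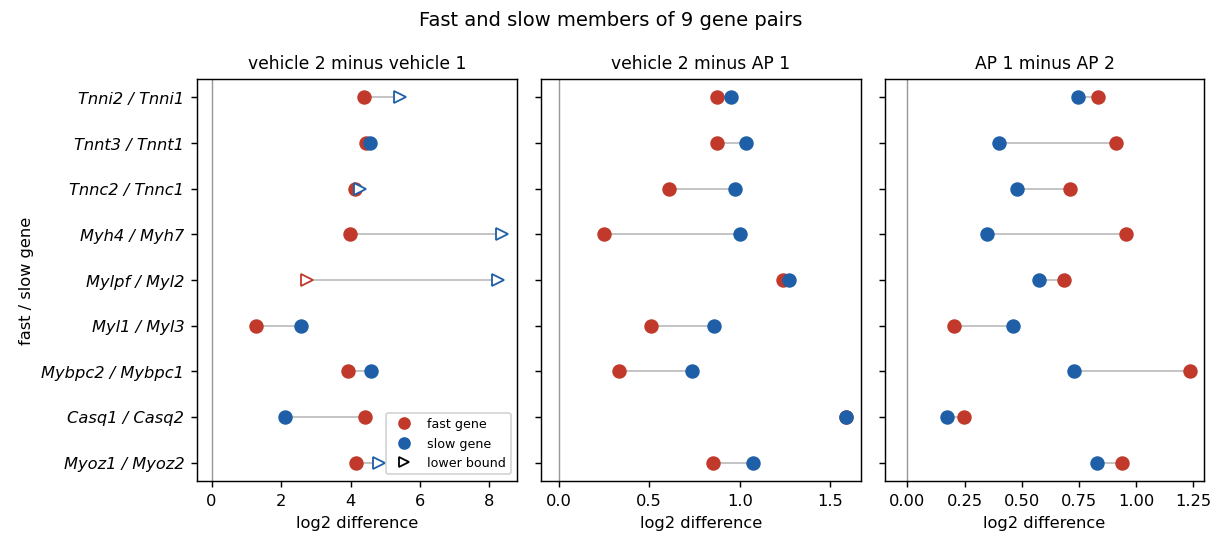
Log2 differences of the fast (red) and slow (blue) gene of 9 paralog pairs, in vehicle replicate 2 minus vehicle replicate 1, vehicle replicate 2 minus AP replicate 1, and AP replicate 1 minus AP replicate 2. The x axes have different ranges and open triangles are lower bounds. The slow gene lies to the right in 8 of 9 pairs in the middle panel and to the left in 8 of 9 in the right panel, and the points of Casq1 and Casq2 coincide in the middle panel.

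AP was compared with vehicle over all 24973 probes by limma. None passed an adjusted p of 0.05 (0.0% of probes), and 1515 probes (6.07%) had an unadjusted p under 0.05. The methods' t-test gave 1478 probes at an unadjusted p under 0.05 and 0 after adjustment. Among the 44 muscle fiber genes none reached either threshold, with unadjusted p values from 0.187 to 0.952 and adjusted p values of 0.806 or more. The groups overlapped for all 44 genes, whereas they did not overlap for 38.3% of all probes. The log2 fold change of AP against vehicle had a median of 1.00 (range -0.61 to 3.19), against 0.01 over 12788 named genes. It was positive for 43 of the 44 genes, against 6568 of the 12788 named genes. Among the 33 genes well above background in every mouse it was positive for 32. The median was 0.90 for fast genes, 1.20 for slow genes and 1.07 for genes of both types, and with normexp background correction the slow median was below the fast median by 0.20. With levels below background in vehicle replicate 1 raised to the lowest signal well above background, the median was 0.91, and Mylpf had a bound below 0. For 42 of 44 genes the SE was larger than the fold change.

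Myh4 changed by 1.27 (SE 1.38), Acta1 by 0.93 (SE 1.48) and Ckm by 0.84 (SE 1.42) on the log2 scale in this comparison. Casq2 had the one negative value (-0.61, SE 0.73). Myh7 (3.19, SE 2.91) and Trim63 (2.88, SE 1.85) had high values that rest on a signal below background in vehicle replicate 1. Their lower bounds in this processing were 3.01 and 1.80. With normexp, whose offset narrows differences between dim signals, the fold changes were 1.67 and 0.86. In the authors' log2 values, which hold no value of Trim63 for vehicle replicate 1, the AP-treated mice exceeded vehicle replicate 2 by 0.04 for this gene. For the list as a whole, the direction turned on vehicle replicate 1. Without this mouse the median was -1.23 and 1 gene, Trim63, was higher with AP. Without vehicle replicate 2 the median was 3.14, with levels below background taken as they were, and all 44 genes were higher. The direction of the median thus depended on which vehicle-treated mouse was kept. Casq2 stayed negative without vehicle replicate 1 (-1.67) and was positive without vehicle replicate 2 (0.45).

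**Figure D4:**
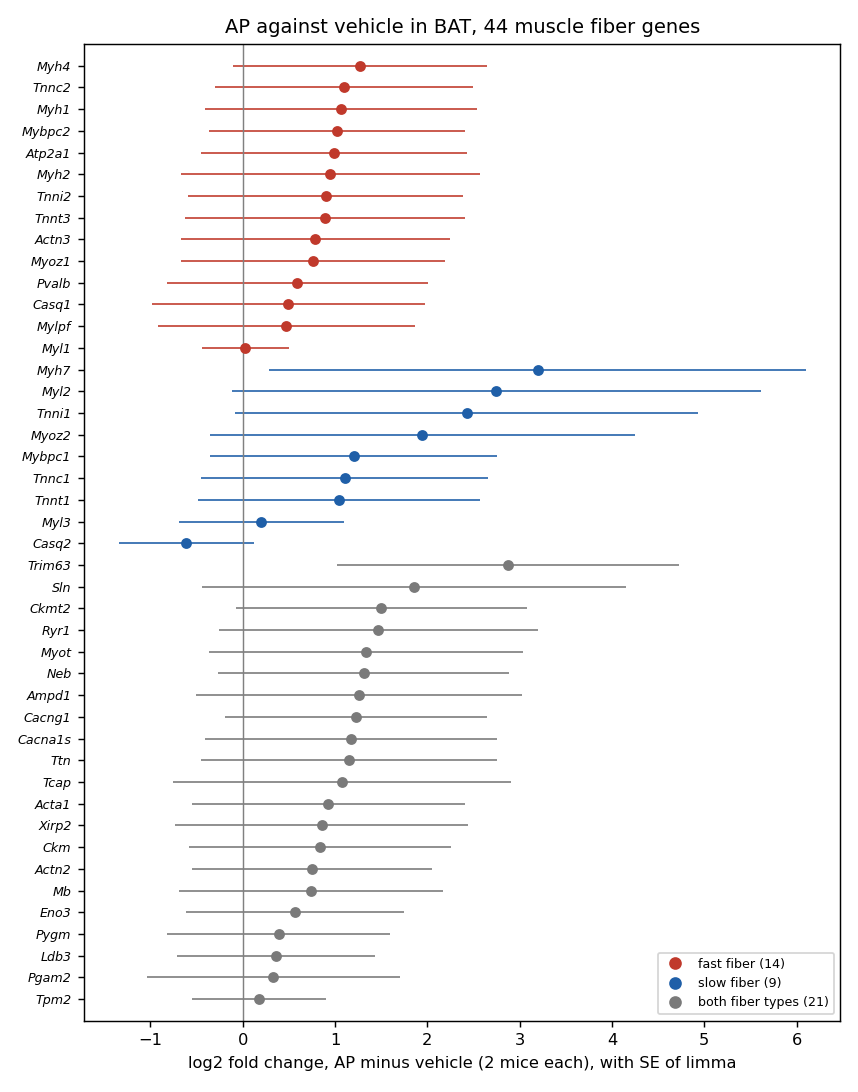
Log2 fold change of AP against vehicle (x axis, 2 mice each) for the 44 genes by fiber type, with the SE of limma as bars. For 11 genes the value includes a level below background in vehicle replicate 1. The bars cross 0 for all genes but Myh7 and Trim63, and the lowest adjusted p among them is 0.806.

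A second list of 36 muscle fiber genes, which were not among the 44, gave a similar picture. Of 28 that passed the filter, 8 were below background in vehicle replicate 1 only and so passed through the AP group alone. The order of the mice found above held for 20 of the 28, against 610 of 12788 named genes. With the 8 genes counted, 24 of the 28 had a higher mean with AP, against 6568 of 12788 named genes. The median log2 fold change was 0.65, or 0.48 with the 8 genes raised in vehicle replicate 1 to the lowest signal well above background. As with the 44 genes, this direction rests on vehicle replicate 1, since vehicle replicate 2 exceeded AP replicate 1 by a median of 0.54 and AP replicate 2 by 1.37. At an unadjusted p under 0.05, Fbxo32 was higher and Dysf, a membrane repair protein, lower with AP (-0.74, SE 0.26), which is 2 of 28 genes against 6.07% of all probes, and neither passed after adjustment by limma. Vehicle replicate 2 exceeded vehicle replicate 1 by a median of 2.98 with these 8 genes at their lower bound and 2.59 over the 20 genes measured in both mice, with Tpm1 (3.28 in vehicle replicate 1 and 6.82 in vehicle replicate 2) as the brightest probe and Cox6a2, the muscle form of a cytochrome oxidase subunit, at 0.26 and 5.28. Pfkm, Scn4a, Smyd1, Dysf and Fbxo32 differed by less than 1 on the log2 scale between these mice.

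Genes of muscle precursors and of other muscle types were looked at next. Of 6 myogenic factors, Mef2c was well above background in every mouse, and Pax7, which marks satellite cells, in 3 mice (-2.55 and -2.52 with vehicle, -3.16 and -3.19 with AP, the last not above background). Myog and Myf5 were above background in no mouse, and Myod1 in 1 mouse. Myf6 (MRF4), the myogenic factor of mature fibers, was at -5.57 (not above background), -1.06, -0.69 and -2.53. Of 6 cardiac genes, Nppa, Nppb, Tnni3, Myl7 and Mybpc3 were above background in no mouse and Myh6 in 1 mouse. Of 6 smooth muscle genes, Acta2, Myh11, Tagln and Cnn1 were well above background in every mouse. Acta2, smooth muscle α-actin, was at 3.98, 3.83, 4.02 and 3.98, and the summed signal of the list, carried mostly by Tagln and Acta2, was 44.4, 39.5, 40.2 and 39.8. Myocd, a cofactor of SRF, was above background only in the AP-treated mice (-3.41 and -2.95, against -3.90 and -4.94 with vehicle; adjusted p 0.80 by limma). Of 5 tendon genes, 2 were well above background in every mouse and Tnmd in none.

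Markers of other cells moved with the muscle fiber genes in part, and their part in the result was not tested. For 12 genes of lymphocytes and MHC class II, of which 8 passed the filter, the summed signal was 31.7 in vehicle replicate 1, 114 in vehicle replicate 2, 39.3 in AP replicate 1 and 37.2 in AP replicate 2. All 8 were highest in vehicle replicate 2. H2-Ab1, an MHC class II chain and the brightest of them, was at 4.13, 5.85, 4.39 and 4.31, and Cd79a, a subunit of the B cell receptor, was above background in no mouse. Of 5 macrophage genes that passed the filter, 4 were highest in vehicle replicate 2 and 3 stood in the order of the muscle fiber genes. Csf1r, a receptor that macrophages depend on, was at 3.27, 4.11, 3.51 and 3.40, and Itgam, the brightest, was highest in vehicle replicate 1 (4.21, 3.82, 2.85 and 3.42). Of 6 white adipose genes, 4 passed the filter. Of these, Nnat (-0.40, 3.23, 0.19 and -0.10) and Mest (-3.35, 0.85, -2.39 and -2.22) were highest in vehicle replicate 2, and both AP-treated mice lay closer to vehicle replicate 1 than to it. Lep, leptin, was at 0.04, 1.45, -0.63 and -0.62, and Retn, resistin, the brightest, at 5.50, 5.40, 4.98 and 5.16. Hoxc8 and Hoxc9 were above background in no mouse.

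Brown adipocyte genes ran the other way in part. Of 12 genes, 6 stood in the exact reverse of the order of the muscle fiber genes, as did 6.09% of all probes. Their summed signal was 8949, 5946, 7320 and 8242, with Cidea, a lipid droplet protein, as the brightest (11.34, 10.62, 11.08 and 11.25). Elovl3, a fatty acid elongase induced in active BAT, was at 6.08 in vehicle replicate 1, -1.07 in vehicle replicate 2, 3.52 in AP replicate 1 and 5.76 in AP replicate 2. In vehicle replicate 2, 7 of the 12 genes were lower than in vehicle replicate 1 and the other 5 higher. The latter were Dio2, the deiodinase that activates thyroid hormone (0.49, 1.53, -1.78 and 3.33), the regulators Prdm16 (0.56, 1.24, 0.51 and 0.86) and Ppargc1a (1.26, 2.14, 1.63 and 2.52), Adipoq (8.37, 8.44, 8.06 and 8.16) and Pparg (6.77, 6.82, 7.02 and 7.05). The position of the arrays on the slide differed for every mouse, so that position and mouse cannot be told apart.

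**Figure D5:**
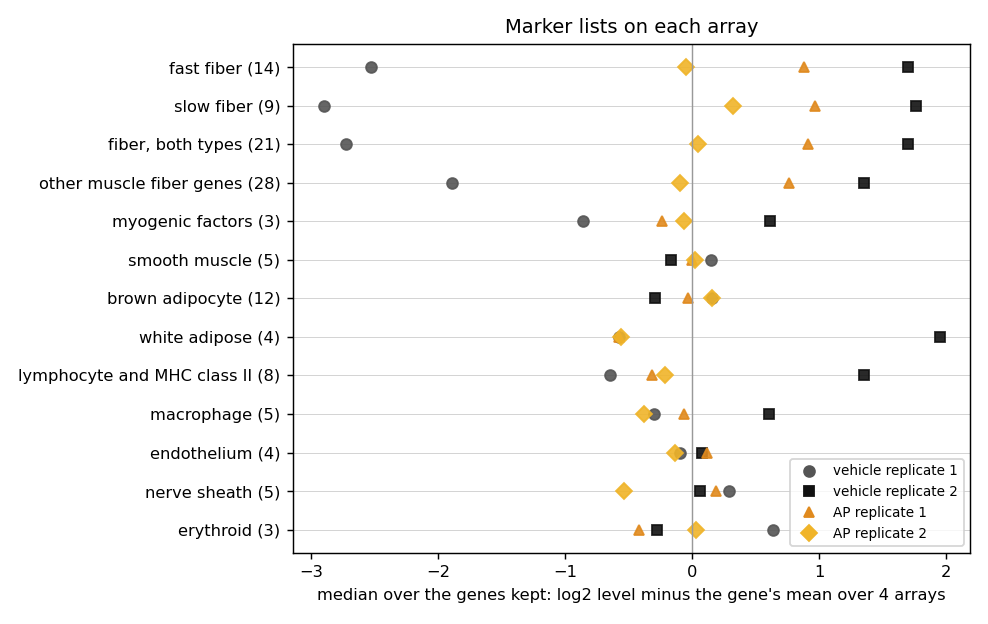
Median over the genes of each marker list of the log2 level minus the gene's own mean over the 4 arrays (x axis), by array, with the number of genes that passed the filter in parentheses. The fast, slow and shared fiber genes run from vehicle replicate 1 at the left to vehicle replicate 2 at the right with the AP replicates between, and white adipose and lymphocyte genes have vehicle replicate 2 alone at the right.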

How the data were processed

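BAT of 2 vehicle-treated and 2 AP-treated Tg mice was measured on one-color Agilent arrays. Per the file headers, signals came from Feature Extraction 10.7.1.1. The deposited values are background-subtracted intensities per spot, linear and not normalized across arrays. A deposited series table holds processed log2 values of the same arrays, whose centering is not stated (differences between arrays correlated with the intensities at r of 0.998 or more), and it was used as an alternative.

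From the intensities, log2 minus each array's 75th percentile over 59305 non-control spots was computed. Outlier spots were dropped before averaging the spots of a probe. Probes were kept where both mice of either group were well above background (24973 of 55681 probes), and groups were compared with limma 3.58.1 in R 4.3.3, without trend or block, with Benjamini-Hochberg adjustment over all probes. Probes were named through their accession with a RefSeq gene table (GRCm38.p6, for names only, since the array design names mm9). A gene with several probes (10 of the 44) is given by its brightest probe. The script was tested on simulated data.

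The genes and lists were chosen with earlier results of these data known. Values on every array are given for 9 fast and slow pairs, for 9 further genes named by function, and for genes that stood apart. Slow and fast designations are from general knowledge. Alternatives were normexp (offset 50, on the median spot signal), quantile and median scaling, other filters, the authors' log2 values, the mean of all probes, a variance trend, a replicate block, the methods' t-test and each mouse left out. A slide and scan block was planned and left out, because all arrays lay on 1 slide and were read in 1 scan. With 2 mice per group the number of arrays limits the precision, and an exact permutation test could not go below 0.333.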

Additional observations from a re-analysis of the deposited data

How the results depend on the processing

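No alternative called a probe at an adjusted p of 0.05. With an unadjusted p under 0.05, limma called 1515 probes, 2611 without the filter on dim probes, and 1003 (without AP replicate 1) to 2177 (without vehicle replicate 1) with 1 mouse left out. The median log2 fold change of the muscle fiber genes was 0.55 to 1.09 under the other settings and -1.23 to 3.14 with 1 mouse left out, and 1 to 44 genes were higher with AP. Leaving out a mouse gave -0.73 to 3.27 for Myh4, -1.18 to 7.57 for Myh7, -1.32 to 6.18 for Tnni1, -1.23 to 3.09 for Acta1, -1.22 to 2.89 for Ckm and -1.67 to 0.45 for Casq2. The low end came without vehicle replicate 1, and the high end without vehicle replicate 2. Trim63 ranged from 0.33 to 5.42. In the authors' log2 values, where vehicle replicate 1 has no value for Tnni1 and Trim63, they stood at -1.62 and 0.04 against vehicle replicate 2 alone. The median difference between the vehicle-treated mice was 3.4 to 4.58, and that between the AP-treated mice 0.73 to 0.92.

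Slow minus fast in the AP comparison was 0.31, and -0.20 with normexp. It was -0.27 in genes well above background on all 4 arrays, which leaves out the 5 slow genes that were dim in vehicle replicate 1. With these raised to the lowest signal well above background, the slow median (1.05) stayed above the fast one (0.90). The authors' table moved the median of all probes from -0.01 to -0.17, so its fold changes are lower throughout. Same-numbered mice did not deviate alike from their group means (correlation over probes -0.13). With 2 mice per group this cannot show whether any mice shared a litter or a day. With a replicate block 1228 probes had an unadjusted p under 0.05, and the median of the genes was 1.00 as without it. With the numbers crossed, a setting added later, it was 1565 probes. Values of Myh7, Tnni1 and Trim63 without vehicle replicate 2 rest on a signal below background in vehicle replicate 1 and are neither measured folds nor bounds.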

Other observations

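Of 12788 named genes that passed the filter, 610 stood in the order of the mice found for the muscle fiber genes. Of these, 537 lay outside all lists, and the order alone was found in 3.95% of all probes tested. The 15 with the largest range were Nmrk2, Apobec2, Apln, Vgll2, 2310002L09Rik, Fitm1, Yipf7, Smtnl1, Prr33, Asb11, Alpk3, Usp13, Dusp13, Padi2 and Hhatl. Nmrk2, a nicotinamide riboside kinase of muscle, was at 0.59 in vehicle replicate 2, -1.19 in AP replicate 1 and -2.93 in AP replicate 2, and was not above background in vehicle replicate 1 (-5.65). Apobec2, a member of the cytidine deaminase family found in muscle, was at 0.13, -0.82 and -1.57 in these mice. Vgll2, a cofactor of TEAD factors in muscle, was at 0.35, -0.82 and -1.68, and Fitm1, a lipid droplet protein of muscle, at 1.00, 0.12 and -1.0. Apln, the secreted peptide apelin, which adipocytes also make, was at 0.58, -1.18 and -1.75. Among the 15, Padi2 was the one above background in all 4 mice (-3.02, 1.52, 0.35 and -0.31). These values are a description, since the genes were picked for their order and range.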
